A study of Mus musculus with 24 samples.

Results

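The genes described here are 33 genes of glucose uptake, glycolysis, lactate handling and the response to low oxygen. They were chosen by name: the glycolytic enzymes, their sugar and lactate transporters and targets of the hypoxia-inducible factor HIF. All 33 are among the 27179 genes of the deposited table. A gene was tested where its value was at least 10 in at least 3 of the 24 libraries, which kept 14517 genes and 32 of the 33. The gene not tested was Ankrd37, an ankyrin repeat HIF target whose value lay between 0 and 9.27. Aldoc and Egln3 passed with low values. Aldoc reached 10 in the 3 F_DPP4_neg libraries alone, so its differences from that group had to be large: they are a description, although the counts of calls below include them. Egln3 reached 10 in 9 libraries, 6 of them outside F_DPP4_neg.

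The study compared PDGFRb+ cells, the perivascular and stromal cells that include fat cell progenitors, between the sexes and between fat depots of C57BL/6 mice. Bulk RNA was sequenced from cells sorted by flow cytometry. There were 8 groups of 3 libraries. From gonadal white fat came APC and FIP cells, each from females (F_APC, F_FIP) and males (M_APC, M_FIP), and from inguinal white fat came DPP4_neg and DPP4_pos cells (F_DPP4_neg, F_DPP4_pos, M_DPP4_neg, M_DPP4_pos), named by the surface peptidase DPP4. No group carried a transgene or received a treatment that the labels name. Neither the age of the mice nor the gates behind the APC and FIP names are given in the sources used here. Nothing in the labels says that the 3 libraries of a group were separate animals, so p-values measure only the spread among libraries, and this spread may be technical. In bulk RNA, fewer cells of a type and less RNA per cell cannot be told apart.

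Glycolysis splits glucose into pyruvate through a priming phase that spends ATP and a payoff phase that returns it, and lactate dehydrogenase turns pyruvate into lactate, which leaves through monocarboxylate transporters. HIF1A is degraded in oxygen after prolyl hydroxylases (the Egln genes) mark it. When oxygen is scarce it accumulates and binds DNA at the core letters ACGTG or GCGTG, raising transporters, glycolytic enzymes, the angiogenic factor Vegfa and others. In white fat, hypoxia signalling is best known from tissue expanding in obesity, and progenitor cells are known to use glycolysis.

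Promoter windows of 4 members are shown because their counts differ between groups in the results below and because each holds the HIF core letters. Each runs from 250 bases before to 50 bases after a start site in RefSeq, build GRCm38.p6, and is printed 5′ to 3′ on the gene's strand. Capitals mark every match to ACGTG or GCGTG or their reverse complements CACGT and CACGC, with overlaps allowed. The windows lie at chr6:82774405-82774704, minus strand, for Hk2 (2 matches), chr7:46845554-46845853, plus strand, for Ldha (7 matches), chr4:119108495-119108794, plus strand, for Slc2a1 (2 matches) and chr7:110627407-110627706, plus strand, for Adm (2 matches).
Hk2: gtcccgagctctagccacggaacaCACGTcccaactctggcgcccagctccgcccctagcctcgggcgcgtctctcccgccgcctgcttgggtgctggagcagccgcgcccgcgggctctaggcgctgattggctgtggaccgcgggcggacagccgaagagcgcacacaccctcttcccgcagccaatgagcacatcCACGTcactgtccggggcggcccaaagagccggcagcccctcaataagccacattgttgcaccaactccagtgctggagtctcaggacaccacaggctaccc
Ldha: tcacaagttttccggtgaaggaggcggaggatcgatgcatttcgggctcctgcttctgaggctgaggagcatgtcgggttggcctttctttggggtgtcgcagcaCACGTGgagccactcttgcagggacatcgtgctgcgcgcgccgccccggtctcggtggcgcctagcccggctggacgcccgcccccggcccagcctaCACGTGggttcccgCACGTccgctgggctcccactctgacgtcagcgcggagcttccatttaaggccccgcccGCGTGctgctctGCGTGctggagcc
Slc2a1: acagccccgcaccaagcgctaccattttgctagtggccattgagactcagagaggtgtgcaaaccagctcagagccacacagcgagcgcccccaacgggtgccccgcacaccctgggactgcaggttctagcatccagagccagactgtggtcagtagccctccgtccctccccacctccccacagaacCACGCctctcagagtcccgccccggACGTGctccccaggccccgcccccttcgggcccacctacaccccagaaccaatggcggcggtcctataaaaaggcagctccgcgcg
Adm: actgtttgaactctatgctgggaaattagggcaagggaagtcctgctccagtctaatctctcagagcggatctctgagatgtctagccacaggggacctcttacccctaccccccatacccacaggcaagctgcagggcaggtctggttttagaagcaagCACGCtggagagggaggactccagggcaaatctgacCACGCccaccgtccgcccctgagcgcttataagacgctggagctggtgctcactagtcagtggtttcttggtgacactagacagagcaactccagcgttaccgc
The Ldha window starts from a transcript 4329 bases from the gene start of the GENCODE annotation, and holds CACGTG, where both strands match, at 2 places.

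RefSeq held promoter windows for 31 of the members, 45 windows in all. Of these windows 36 (80%) held at least 1 match, against 43.8% of all 32851 windows of this length. By gene, 28 of 31 members (90.3%) had a match in some window, against 46.7% of 27025 genes. The 3 without a match were Gpi1, Tpi1 and Eno2. A match is a description of the letters and not a binding site, and several members were listed as HIF targets when they were chosen. Every string searched holds CG, and the windows compared were not matched for CG content, expression or number of windows a gene. The shares therefore do not speak of HIF alone. Slc2a3 and Ndrg1 had no window in the table.

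Values are normalised read counts, that is, whole reads divided by a size factor for each library, and the libraries held 9152470 to 18221692 reads assigned to genes. Dpp4 lay at 14883 to 20848 in the DPP4_pos groups. In the negative groups it lay at 1150 to 4213 in F_DPP4_neg and at 235 to 258 in M_DPP4_neg. Xist was at 11954 or more in every female library and at 5.80 or less in every male one. Pdgfrb and Pdgfra, which mark these cells, were present in all libraries (at least 1730 and 6232). The summed value of 9 epithelial markers was 4235 to 10286 in F_DPP4_neg, none of the 9 at 0 there, against 12.3 to 402 in the other groups. The 10 mesothelial markers summed to 6856 to 16557 in F_DPP4_neg, against 54.0 to 694 in the other inguinal groups and 2893 to 4553 in the gonadal ones. The mesothelial list includes the keratins Krt8, Krt18 and Krt19. Over the F_DPP4_neg libraries its sum rose and fell with the epithelial sum, so these sums are not separate signals. Endothelial markers (10 genes, none at 0 in any group) summed to 5643 to 7277 in FIP against 3194 to 4559 in APC, and to 4259 to 7392 in DPP4_pos against 1027 to 2793 in DPP4_neg. Adipocyte markers (8 genes, none at 0) were higher in APC (2215 to 2716) than in FIP (540 to 1174), as were 10 mural markers (2476 to 4254 against 960 to 2278), none of them at 0 there, and the 20 immediate early and dissociation genes (476711 to 544510 against 317843 to 366421). The part of other cells in the results below was not tested.

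By mean value per kb of exon, Hk2, the inducible hexokinase, was highest of the 33 (2119), followed by the vasodilator peptide gene Adm (1401), aldolase Aldoa (1387), Ldha (1221) and the collagen prolyl hydroxylase P4ha1 (849). At the low end were Ankrd37 (2.82), Aldoc (2.94), Egln3 (3.94) and the kinase Pdk1 (11.2). The length used joins all annotated exons of a gene. It was 4133 bases for Gapdh, 13401 for Pfkp and 5969 for Hk2. Their protein-coding transcripts held 1943, 4536 and 5918 different windows of 50 bases. Ranks and family shares per kb depend on this length. Gapdh, often among the most abundant transcripts of a cell, had only 34.4 per kb. Of its 50-base exon windows 58.4% also occur in other genes, as do 68.0% for Pgk1 and 59.1% for Bnip3, and over 10% for 11 members, namely these 3 and Eno1, Pgam1, Gpi1, Pkm, Pfkp, Ndrg1, Ankrd37 and Ldha. Reads in such stretches could have been dropped or shared, so levels of these 11 genes are uncertain. For Aldoa the windows came from an annotated entry at chr7:126800790-126809108, which holds none of its RefSeq promoter windows. The sharing of Aldoa is therefore not known. Its value per kb pools the exons of all entries of that name and is uncertain too.

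**Figure D1:**
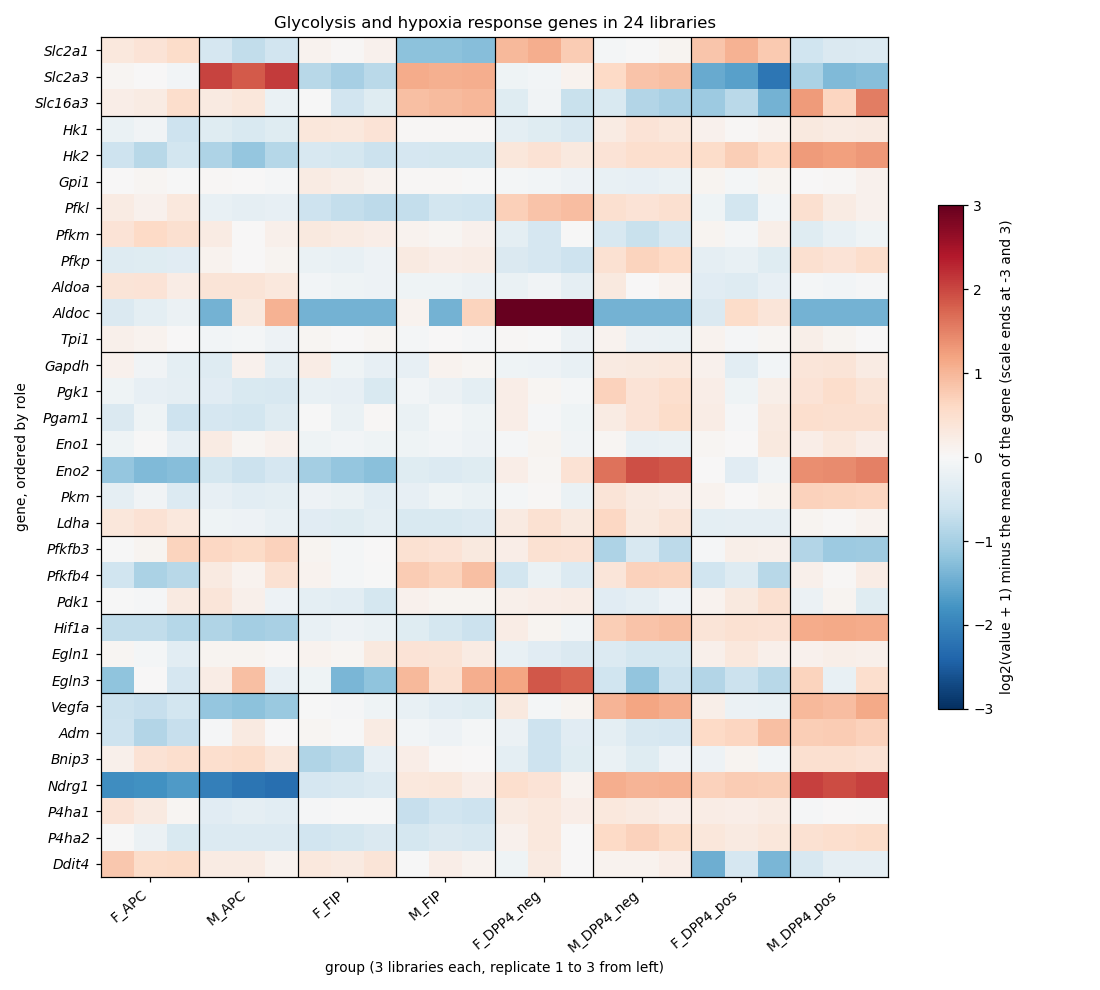
Rows are the 32 members tested, ordered by role, and columns are the 24 libraries in groups of 3. Colour is log2(value + 1) minus the gene's mean over all libraries, and the scale ends at -3 and 3, which Aldoc exceeds in F_DPP4_neg. Ndrg1 is lowest in the APC libraries and highest in M_DPP4_pos, Slc2a3 is highest in M_APC, and Eno2 is highest in the male inguinal libraries.

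The first comparison asked how the members differ between FIP and APC cells of gonadal fat. FIP cells held more Ndrg1, a stress-responsive HIF target, more Hif1a and Vegfa and more hexokinase Hk1 and regulator Pfkfb4, and less of both glucose transporters, less aldolase Aldoa, less Ldha and less P4ha1, in both sexes. In females 10 of 32 members were called higher in FIP and 11 lower, where 21.3% and 18.1% of all genes tested were. In males 11 were higher and 8 lower, where 18.9% and 18.0% of all genes were. A call is a Benjamini-Hochberg adjusted p under 0.05 from limma on log2(value + 1), over all 14517 genes. Some members not called by this test were called with another scaling or a count test, and such gains are given only in part. The median log2 difference of the members was -0.069 in females and 0.039 in males, beside -0.0026 and -0.028 for all genes. With quantile normalization the male split was 8 higher and 10 lower. Of the calls, 6 higher and 7 lower ones in females, and 7 and 5 in males, held under every alternative analysis run, the leaving out of each library included. Those that held in both sexes were 5 higher (Hk1, Pfkfb4, Vegfa, Hif1a and Ndrg1) and 5 lower (Aldoa, Ldha, Slc2a1, Slc2a3 and P4ha1). The share of all genes that held in both sexes is not given here.

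Among the transporters, Slc2a3, a high-affinity glucose transporter, counted 136, 131 and 123 in F_APC (replicates 1 to 3) and 72.3, 64.0 and 73.6 in F_FIP, a log2 difference of -0.88 ± 0.14 (SE, limma adjusted p = 1.80e-05). In males it counted 536, 464 and 562 in M_APC and 283, 271 and 278 in M_FIP, a log2 difference of -0.90 ± 0.14 (limma adjusted p = 1.45e-05). Each FIP library lay below each APC library of its sex, while all male libraries lay above all female ones. Slc2a1, the transporter of basal glucose uptake, was lower in FIP by a smaller step (log2 -0.33 ± 0.086 in females and -0.65 ± 0.086 in males). Slc16a3, which exports lactate, was called in opposite directions (-0.64 in females and 0.82 in males). Its female call was lost without F_APC 3, F_FIP 2 or F_FIP 3 and with quantile normalization, and the male minus female difference was called (1.46 ± 0.31, limma adjusted p = 0.00281).

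Of the priming enzymes, Hk1, the housekeeping hexokinase, counted 928, 995 and 698 in F_APC and 1353, 1331 and 1414 in F_FIP (log2 0.66 ± 0.086, limma adjusted p = 8.86e-07). The male counts were 833, 781 and 832 in M_APC and 1099, 1105 and 1095 in M_FIP (log2 0.43 ± 0.086, limma adjusted p = 2.69e-04). The FIP libraries lay above the APC libraries in both sexes. Hk2 was called higher in FIP in males (0.46) and not in females (0.11), but the test of the difference between the sexes was not passed (0.35 ± 0.12, limma adjusted p = 0.0526), although edgeR (adjusted p = 0.0451) and DESeq2 (adjusted p = 0.0199) called it. Pfkl, the liver-type phosphofructokinase, counted 188, 172 and 198 in F_APC against 102, 95.5 and 91.6 in F_FIP (log2 -0.94 ± 0.12, limma adjusted p = 3.81e-07). Among males the counts were 134, 129.8 and 133 in M_APC against 95.4, 107 and 104 in M_FIP (log2 -0.37 ± 0.12, limma adjusted p = 0.0131). Every FIP library was below every APC library of its sex, although the male call was lost without M_FIP 1. The platelet-type Pfkp was called higher in both sexes by 0.17 and 0.17, and neither call held when single libraries were left out (F_APC 1, 2 or 3 and F_FIP 1 or 3 in females, M_APC 2 or 3 and M_FIP 1, 2 or 3 in males) or with quantile normalization. Aldoa, which cleaves the sugar in the middle, was lower (log2 -0.46 in females and -0.50 in males).

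In the payoff phase, Ldha, which makes lactate, was lower in FIP in females (-0.69 ± 0.069) more than in males (-0.28 ± 0.069), and that difference between the sexes was called (0.41, limma adjusted p = 0.00666). Pgam1, a phosphoglycerate mutase, was called higher in both sexes (0.34 and 0.35), but the calls were lost without F_APC 1 or 3 and F_FIP 1 or 3 in females, and without M_APC 2 or M_FIP 2 in males. The regulator Pfkfb4, which sets fructose 2,6-bisphosphate, counted 185, 144 and 156 in F_APC and 299, 269 and 278 in F_FIP (log2 0.80 ± 0.12, limma adjusted p = 8.50e-06). In males the counts were 334, 300.2 and 380.1 in M_APC and 474, 446 and 522 in M_FIP (log2 0.51 ± 0.12, limma adjusted p = 0.0017). No APC library reached the FIP libraries of its sex. Pfkfb3, the other gene of this pair, was not called in either sex (-0.23 ± 0.13 and -0.24 ± 0.13). With quantile normalization it was called lower in females (-0.34, limma adjusted p = 0.0437) and males (-0.33, limma adjusted p = 0.0493).

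Hif1a, the oxygen-regulated HIF subunit, counted 2140.4, 2145 and 1973 in F_APC and 3066, 3196 and 3110.0 in F_FIP (log2 0.58 ± 0.076, limma adjusted p = 7.89e-07). It counted 1913, 1747 and 1820.3 in M_APC and 2777, 2483 and 2287 in M_FIP (log2 0.46 ± 0.076, limma adjusted p = 2.62e-05). All FIP libraries were above the APC libraries of both sexes. Egln1, the main prolyl hydroxylase acting on HIF1A, was higher by 0.26 and 0.28, calls lost without F_APC 3 or F_FIP 3 in females, without M_FIP 1 in males, and in both sexes with quantile normalization.

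Of the HIF targets outside glycolysis, Ndrg1 had the largest difference, from 843, 867 and 936 in F_APC to 2135, 2171 and 2298 in F_FIP (log2 1.32 ± 0.078, limma adjusted p = 1.51e-12). In males it went from 737, 672 and 637 in M_APC to 3779.9, 3879 and 3513 in M_FIP (log2 2.45 ± 0.078, limma adjusted p = 6.55e-18). The male step was the larger (difference of differences 1.13 ± 0.11, limma adjusted p = 1.65e-07). Vegfa, which stimulates endothelial growth, counted 1347, 1295 and 1438 in F_APC and 2089, 2059 and 1925 in F_FIP (log2 0.57 ± 0.09, limma adjusted p = 1.23e-05). In males it counted 933, 895 and 962 in M_APC and 1792, 1695 and 1637 in M_FIP (log2 0.88 ± 0.09, limma adjusted p = 1.57e-08). For both genes the APC and FIP libraries did not overlap within a sex. The endothelial marker sums given above were higher in the same FIP libraries.

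Bnip3, a mitophagy receptor, moved the other way. It counted 284, 347 and 366 in F_APC and 138, 147 and 217 in F_FIP (log2 -1.01 ± 0.13, limma adjusted p = 8.70e-07). The male counts were 367, 377 and 324 in M_APC and 294, 262 and 258 in M_FIP (log2 -0.39 ± 0.13, limma adjusted p = 0.0224), without overlap. The male call was lost without M_APC 1, M_APC 2, M_FIP 2 or M_FIP 3. P4ha1 was lower in both sexes (-0.27 and -0.33). Adm was higher in FIP in females (0.84 ± 0.10) and not called in males (-0.20 ± 0.10). In males it was called lower with quantile normalization (-0.35) and total reads (-0.25). The difference between the sexes was called for Adm (-1.03, limma adjusted p = 2.70e-05). Over the 32 members, such a difference between the sexes was called for 5 with a positive sign and 1 with a negative sign, where 5.46% and 5.33% of all genes were (5 and 2 with scaling by total reads).

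The remaining members were called in at most 1 sex between FIP and APC. In females Gpi1, which isomerises glucose 6-phosphate, was called higher (0.16) and Pfkm, the muscle-type phosphofructokinase, Pdk1, which turns down pyruvate dehydrogenase, and P4ha2, the second collagen prolyl hydroxylase, lower (-0.25, -0.45 and -0.29), but each of these 4 calls was lost without at least 1 library, F_APC 1 for P4ha2 and F_APC 3 for the others among them. In males Pgk1, which makes ATP from bisphosphoglycerate, was called higher (0.25, lost without M_APC 2 or 3 or M_FIP 1 or 2 and with quantile normalization and total reads) and Eno1 lower (-0.26, lost without M_APC 1 or M_FIP 3). Tpi1, Gapdh, Eno2, Pkm, Pfkfb3, Egln3, Ddit4 and Aldoc were called in neither sex in the main analysis.

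Among 24 other glycolysis genes tested, 0 higher and 10 lower in FIP were called in females and 4 higher and 8 lower in males, medians -0.23 and -0.44. At an unadjusted p under 0.05 the female counts were 0 higher and 10 lower. The largest were Gpd1, glycerol 3-phosphate dehydrogenase (-2.62 in females and -1.37 in males), Slc16a7, a monocarboxylate transporter (-1.91 and -2.10), and Ldhb, the heart-type lactate dehydrogenase subunit (-1.68 and -1.74). Among 45 other oxygen sensing and HIF target genes, 11 higher and 16 lower were called in females and 9 higher and 15 lower in males. Edn1, which encodes the vasoconstrictor endothelin 1 (3.0 and 5.15), and the repressor Bhlhe40 (1.54 and 1.62) were higher, and Ppp1r3c, a glycogen-targeting subunit (-1.61 and -2.06), was lower.

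**Figure D2:**
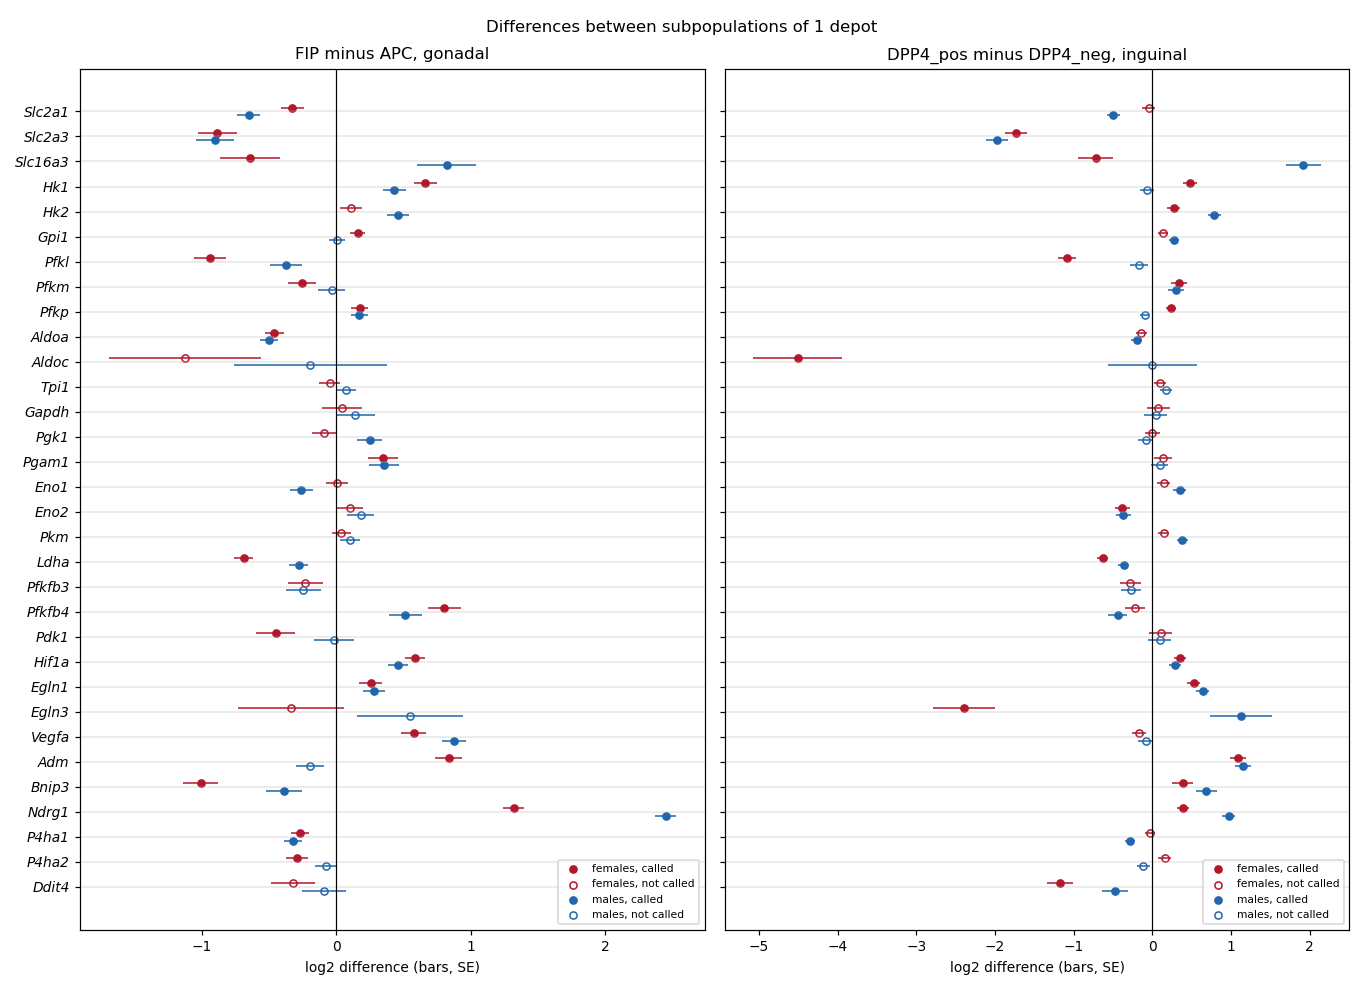
The log2 difference of each member (point, with its SE) is plotted for FIP minus APC at left and DPP4_pos minus DPP4_neg at right, females in red and males in blue, filled where called. Ndrg1 lies farthest right in gonadal fat in both sexes, Slc2a3 lies left of 0 in all 4 comparisons, and Slc16a3 lies on opposite sides of 0 in the sexes.

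The second comparison was of DPP4_pos against DPP4_neg cells of inguinal fat. DPP4_pos cells held more Adm and Egln1 and less Slc2a3, Ldha and neuronal-type enolase Eno2 in both sexes, and these were the 5 calls that held in both sexes under every alternative run. Again, no share of all genes that held in both sexes is given. In females 9 members were called higher and 8 lower, where 22.6% and 27.1% of all genes were, and 3 and 7 of them held. In males 12 were higher and 8 lower, where 25.2% and 25.3% of all genes were, and 10 and 6 held. The members' medians were 0.087 and 0.021, beside -0.037 and 9.47e-05 for all genes. The female split turned towards lower with other scalings, to 6 higher and 12 lower with quantile normalization and 5 higher and 14 lower with total reads, which put the median of all genes at -0.19. The epithelial and mesothelial markers of F_DPP4_neg given above fall on the negative side of the female comparison. Dpp4 itself was higher in F_DPP4_neg (1150 to 4213) than in M_DPP4_neg (235 to 258). The part of this in the female differences, and in those between the sexes, was not tested.

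Slc2a3 counted 118, 122 and 139 in F_DPP4_neg and 45.0, 41.0 and 28.1 in F_DPP4_pos, a log2 difference of -1.73 ± 0.14 (limma adjusted p = 2.59e-10). Among males the counts were 198, 234 and 244 in M_DPP4_neg and 66.7, 50.8 and 52.9 in M_DPP4_pos (log2 -1.97 ± 0.14, limma adjusted p = 1.22e-11). The groups did not overlap, and with the gonadal values above Slc2a3 was lower in FIP and in DPP4_pos than in the other population of the depot. Slc2a1 was lower in DPP4_pos in males (-0.49 ± 0.086) and not called in females (-0.047 ± 0.086). In females it was called lower with quantile normalization (-0.21, limma adjusted p = 0.0291) and total reads (-0.20, limma adjusted p = 0.0461). The male minus female difference was called (-0.45), but not with total reads (-0.30, limma adjusted p = 0.0556).

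Slc16a3, named after its values were seen because its direction differs between the sexes, counted 45.3, 54.2 and 36.3 in F_DPP4_neg and 27.0, 33.2 and 21.5 in F_DPP4_pos. In males it counted 42.6, 31.7 and 29.6 in M_DPP4_neg and 145, 92.3 and 173 in M_DPP4_pos. All 3 M_DPP4_pos libraries were above the other inguinal libraries, and the log2 difference was 1.92 ± 0.22 (limma adjusted p = 6.24e-08). The female difference of -0.72 ± 0.22 was lost without F_DPP4_neg 2 or F_DPP4_pos 3 and with quantile normalization. The male minus female difference was 2.64 ± 0.31 (limma adjusted p = 5.36e-07).

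Among the priming enzymes, Hk2 counted 14074, 14879 and 13510.4 in F_DPP4_neg and 16126, 18524 and 16724 in F_DPP4_pos (log2 0.27 ± 0.082, limma adjusted p = 0.0073). The male counts were 14783, 15695 and 15694 in M_DPP4_neg and 26816, 25832 and 27236 in M_DPP4_pos (log2 0.79 ± 0.082, limma adjusted p = 9.52e-09). The groups did not overlap in either sex, but the female call was lost without F_DPP4_pos 2, with total reads, and in the fit of only these 2 groups, without (limma adjusted p = 0.0528) and with the replicate number as a block (0.0621), and its direction turned with quantile normalization (-0.11). Hk1 and Pfkp were called higher in DPP4_pos in females (0.48 and 0.24, the Pfkp call lost with quantile normalization and total reads) and neither in males. With quantile normalization Pfkp was called lower in males (-0.21). Pfkl was lower in females (-1.08 ± 0.12) and not called in males (-0.17 ± 0.12), a difference between the sexes that was called (0.91, limma adjusted p = 1.44e-04). Pfkm was called higher in both sexes (0.34 and 0.30), lost without F_DPP4_neg 2 or with total reads in females and without M_DPP4_neg 2 or M_DPP4_pos 3 or with quantile normalization in males.

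Aldoc, the brain-type aldolase, named after its values were seen, was nearly confined to F_DPP4_neg, with values of 50.8, 92.1 and 65.2. It had 262 reads there over the 3 libraries and 0 to 7 reads in each other group. The ratio of F_DPP4_neg to F_DPP4_pos, with 7 reads, was 32.2 (exact binomial 95% interval 15.4 to 80.9, counting error only), and F_DPP4_neg was at least 64.4-fold higher than M_DPP4_neg, which had no reads, set at a floor of 3 reads over the group. Egln3, a prolyl hydroxylase that HIF itself raises, showed a like pattern, with 19.9, 32.5 and 30.6 in F_DPP4_neg, 4.0, 4.88 and 4.13 in F_DPP4_pos and 5.07, 3.06 and 4.93 in M_DPP4_neg. The epithelial sums ran from 4235 to 10286 over the same F_DPP4_neg libraries, and their part in these values was not tested. Away from F_DPP4_neg, Egln3 lay between 2.56 and 18.7.

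In the payoff phase, Ldha counted 4776, 5438 and 4845 in F_DPP4_neg and 3195, 3243 and 3267 in F_DPP4_pos (log2 -0.63 ± 0.069, limma adjusted p = 3.42e-08). Among males the counts were 6059.7, 4853 and 5116 in M_DPP4_neg and 4175, 4003 and 4217 in M_DPP4_pos (log2 -0.36 ± 0.069, limma adjusted p = 9.03e-05). The positive libraries lay below the negative ones in each sex. Eno2 was lower as well (log2 -0.38 ± 0.098 in females and -0.37 ± 0.098 in males). In males Eno1 and Pkm, which makes pyruvate, were called higher (0.35 and 0.38). Gapdh, Pgk1 and Pgam1 were called in neither sex. Of the 3 regulators, Pfkfb4 was called lower in males (-0.44), and Pfkfb3 and Pdk1 in neither sex. In females Pfkfb3 was called lower with quantile normalization (-0.34) and total reads (-0.43). Pfkfb4 was called lower there with total reads (-0.37), and Pdk1 higher with quantile normalization (0.36).

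Egln1 counted 582, 537 and 499.6 in F_DPP4_neg and 751, 836 and 747 in F_DPP4_pos (log2 0.53 ± 0.085, limma adjusted p = 1.18e-05). In males it counted 504, 469.7 and 469.8 in M_DPP4_neg and 737, 760.2 and 757 in M_DPP4_pos (log2 0.64 ± 0.085, limma adjusted p = 5.93e-07). Hif1a was called higher in both sexes by 0.36 and 0.29, the female call being lost with quantile normalization. Egln3 was lower in females (-2.40 ± 0.39) and called higher in males (1.12 ± 0.39), the male call lost without M_DPP4_neg 2, M_DPP4_pos 1 or M_DPP4_pos 3 and with DESeq2.

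Adm was the target with the largest rise held in both sexes. It counted 1881, 1389.9 and 1683 in F_DPP4_neg and 3224, 3359 and 3970.5 in F_DPP4_pos (log2 1.1 ± 0.10, limma adjusted p = 1.93e-09). The male counts were 1746, 1537 and 1514 in M_DPP4_neg and 3581, 3589 and 3447 in M_DPP4_pos (log2 1.15 ± 0.10, limma adjusted p = 5.33e-10). The DPP4_pos libraries of both sexes overlapped each other and lay above all other libraries of the series. Its promoter window, printed above, holds CACGC at 2 places.

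Ndrg1 counted 4324, 4085 and 3281 in F_DPP4_neg and 4956, 5159 and 5106 in F_DPP4_pos (log2 0.39 ± 0.078, limma adjusted p = 1.80e-04). Among males the counts were 6461, 6201 and 6271 in M_DPP4_neg and 12559.8, 11914 and 12607 in M_DPP4_pos (log2 0.97 ± 0.078, limma adjusted p = 1.01e-10). The female call was lost with quantile normalization, and the male step was the larger (difference 0.58 ± 0.11, limma adjusted p = 2.75e-04). Bnip3 counted 208, 166 and 201 in F_DPP4_neg, 232, 274 and 245 in F_DPP4_pos, 225, 201 and 232 in M_DPP4_neg and 357, 358 and 346 in M_DPP4_pos. Its log2 differences were 0.39 ± 0.13 in females, lost without F_DPP4_neg 2 or F_DPP4_pos 2 and with total reads, and 0.69 ± 0.13 in males. Bnip3 was thus higher in DPP4_pos than in DPP4_neg and lower in FIP than in APC.

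Ddit4, an inhibitor of mTOR signalling, counted 141, 187 and 154 in F_DPP4_neg and 55.0, 107 and 58.7 in F_DPP4_pos (log2 -1.17 ± 0.16, limma adjusted p = 1.51e-06). In males it counted 165, 165 and 176 in M_DPP4_neg and 109.6, 128 and 127 in M_DPP4_pos (log2 -0.48 ± 0.16, limma adjusted p = 0.0171). The groups did not overlap within a sex, but the male call was lost without M_DPP4_neg 3 or M_DPP4_pos 1. In males P4ha1 (-0.28) and Aldoa (-0.20, lost without M_DPP4_neg 1 or M_DPP4_pos 1 or 2) were lower and Gpi1 (0.28) higher. Vegfa, Tpi1 and P4ha2 were called in neither sex in the main analysis. In females Vegfa (-0.34 and -0.33), P4ha1 (-0.26 and -0.19) and Aldoa (-0.36 and -0.295) were called lower with quantile normalization and total reads. Gpi1 was called higher in females with edgeR (0.16) and DESeq2 (0.14). P4ha2 was called lower in males with quantile normalization (-0.22). The difference between the sexes was called for 8 members with a positive sign and 4 with a negative sign, where 16.4% and 12.6% of all genes were, and 11 and 1 with scaling by total reads.

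Other glycolysis genes were called 0 higher and 10 lower in DPP4_pos of 24 in females (1 higher and 10 lower at an unadjusted p under 0.05), and 6 higher and 8 lower in males. Hk3, a hexokinase of myeloid cells (-1.99 and -2.40), and Ldhb (-2.20 and -1.26) were lower in both sexes, and Slc2a4, the insulin-responsive transporter, in females (-2.76). Macrophage markers (13 genes, none at 0) summed to 640.0 to 1573 in F_DPP4_neg and 457 to 749 in M_DPP4_neg, against 279 to 373 and 185 to 293 in the DPP4_pos groups, and the neutrophil markers (4 genes) to 469 to 1705 in M_DPP4_neg. The other oxygen sensing and HIF target genes were called 11 higher and 18 lower of 45 in females and 16 higher and 15 lower in males. Edn1 was higher (2.31 and 5.15), and Plin2, a lipid droplet coat protein (-1.36 and -3.91), and Epas1, which encodes the other main HIF subunit (-2.57 and -2.49), were lower.

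**Figure D3:**
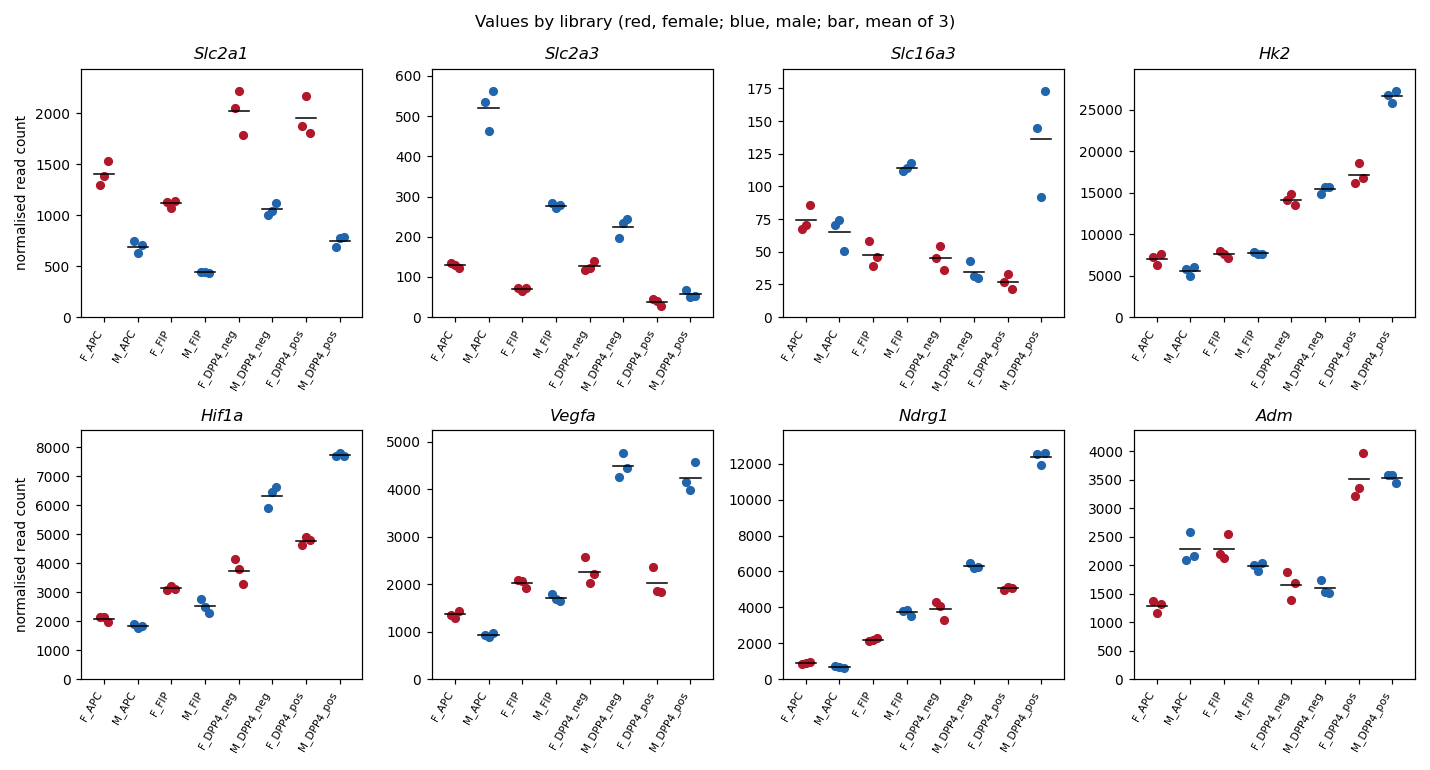
The normalised read count of 8 members is plotted for each library (points, females red and males blue) with the mean of each group as a bar, on a linear axis from 0. Slc2a1 is higher in females in every group, Slc2a3 is highest in M_APC, Hk2 and Ndrg1 peak in M_DPP4_pos, and the gonadal libraries are lower than the inguinal ones for Hk2 and Hif1a.

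The sexes were compared within each of the 4 populations. In all 4, males held more Slc2a3, platelet-type phosphofructokinase Pfkp, Eno2 and Pfkfb4, and less Slc2a1, and these calls held under every alternative run. The share of all genes called the same way in all 4 is not given here. In APC cells 7 members were called higher in males and 10 lower, where 22.4% and 22.1% of all genes were. In FIP cells the counts were 10 and 6, beside 18.2% and 19.0% of all genes. In DPP4_neg cells they were 14 and 7, beside 27.1% and 30.3%, and in DPP4_pos cells 19 and 6, beside 27.1% and 25.5%. The F_DPP4_neg libraries with the epithelial and mesothelial sums given above are the female side of the DPP4_neg comparison, and the inguinal side of the female APC comparison further on. The members' medians were -0.08, 0.028, 0.10 and 0.36 in that order, and those of all genes 0, -0.025, -0.029 and 0.

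These splits moved with the scaling. With total reads the DPP4_neg split became 9 higher and 15 lower, the median of all genes then being -0.31, and with quantile normalization it became 13 higher and 10 lower. The APC split became 8 higher and 7 lower with total reads, and the FIP split 11 higher and 4 lower with total reads, 11 higher and 4 lower with quantile normalization and 12 higher and 4 lower with edgeR. In DPP4_pos total reads put the median of all genes at -0.14. Of the calls, 5 and 7 in APC, 8 and 4 in FIP, 9 and 5 in DPP4_neg and 15 and 3 in DPP4_pos held under every alternative.

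Slc2a1 counted 1299.9, 1383 and 1529 in F_APC and 742, 626 and 707 in M_APC, a male minus female log2 difference of -1.02 ± 0.086 (limma adjusted p = 4.96e-10). In FIP it counted 1133, 1073 and 1139.5 in females and 445, 444 and 429 in males (log2 -1.34 ± 0.086, limma adjusted p = 5.19e-12). In DPP4_neg it counted 2046, 2215 and 1788 in females and 1004, 1045 and 1118 in males (log2 -0.93 ± 0.086, limma adjusted p = 1.47e-09). No male library reached the female libraries of its population. In DPP4_pos the counts were 1876, 2165 and 1808 in females and 688, 776 and 786 in males (log2 -1.37 ± 0.086, limma adjusted p = 1.76e-12), again without overlap.

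Slc2a3 went the other way, by 1.99 ± 0.14 in APC, 1.97 ± 0.14 in FIP, 0.83 ± 0.14 in DPP4_neg and 0.58 ± 0.14 in DPP4_pos (limma adjusted p from 3.01e-11 to 0.0013). The rise in males was called larger in gonadal than in inguinal cells, by 1.17 for APC against DPP4_neg and 1.39 for FIP against DPP4_pos. Of the value per kb of the transporter pair, Slc2a3 made up 26.7 ± 0.982% (SD, n = 3) in M_APC and 23.4 ± 0.546% in M_FIP, but 4.31 ± 0.532% in F_APC and 2.94 ± 0.122% in F_FIP. In inguinal cells it made up 9.35 ± 0.562% in M_DPP4_neg and 2.98 ± 0.555% in F_DPP4_neg, and 3.57 ± 0.792% and 0.934 ± 0.202% in the DPP4_pos groups. Slc2a1 remained the larger share in every group.

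Pfkp counted 1592, 1615 and 1627 in F_APC and 2244, 2097 and 2187 in M_APC, 1807, 1780.0 and 1869 in F_FIP and 2519.6, 2398 and 2432 in M_FIP. In inguinal cells it counted 1532, 1463 and 1343 in F_DPP4_neg and 2870.0, 3325 and 3126 in M_DPP4_neg, and 1709, 1779 and 1618 in F_DPP4_pos and 2916, 2778 and 3002 in M_DPP4_pos. The male values were higher by log2 0.43 ± 0.063, 0.43 ± 0.063, 1.1 ± 0.063 and 0.77 ± 0.063 in that order (limma adjusted p from 2.14e-13 to 5.44e-06). Its part of the 3 phosphofructokinases per kb was 41.0 ± 1.05% in F_APC and 69.1 ± 2.66% in M_DPP4_neg. Pfkm was lower in males in APC (-0.36 ± 0.10), DPP4_neg (-0.27 ± 0.10) and DPP4_pos (-0.30 ± 0.10), from 456, 522 and 481 to 407, 347 and 385 in APC, from 279.7, 244 and 339 to 246, 218 and 248 in DPP4_neg and from 367, 329.7 and 388 to 266, 296 and 316 in DPP4_pos. Of these calls, the APC one was lost with total reads, the DPP4_neg call without F_DPP4_neg 3 or M_DPP4_neg 2 and with quantile normalization, and the DPP4_pos call without F_DPP4_pos 3 or M_DPP4_pos 1.

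Eno2 counted 206, 184 and 191 in F_APC and 318, 296 and 322 in M_APC (log2 0.69 ± 0.098, limma adjusted p = 2.95e-06). In FIP it counted 225, 206 and 194 in females and 357, 347 and 356 in males (log2 0.76 ± 0.098, limma adjusted p = 9.02e-07). In DPP4_neg it counted 532, 481 and 625 in females and 1426, 1761 and 1683 in males (log2 1.57 ± 0.098, limma adjusted p = 1.28e-12). In DPP4_pos it counted 465, 363 and 431 in females and 1213, 1229 and 1323 in males (log2 1.58 ± 0.098, limma adjusted p = 1.67e-12). The sexes did not overlap in any of the 4 populations. Of the value per kb of Eno1 and Eno2, Eno2 made up 64.5 ± 5.14% in M_DPP4_neg and 52.6 ± 1.91% in M_DPP4_pos, against 36.4 ± 4.66% and 28.5 ± 2.71% in the female inguinal groups and 18.0 ± 1.63% in F_APC. Eno1 shares 49.5% of its exon windows with other genes, so this share is uncertain.

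Pfkfb4 counted 188, 244 and 209 in F_DPP4_neg and 359, 453 and 441 in M_DPP4_neg, and 183, 212 and 157 in F_DPP4_pos and 309.7, 287 and 323 in M_DPP4_pos. With the gonadal values given above, the male rise was 1.06 ± 0.12 in APC, 0.77 ± 0.12 in FIP, 0.97 ± 0.12 in DPP4_neg and 0.74 ± 0.12 in DPP4_pos (limma adjusted p from 1.13e-07 to 1.97e-05). Pfkfb3 fell in males in both inguinal populations (-1.1 ± 0.13 and -1.1 ± 0.13) and was called higher in males in both gonadal ones (0.38 and 0.37). The gonadal Pfkfb3 calls were lost without F_APC 1, F_APC 2 or M_APC 3 in APC, and without F_FIP 2, F_FIP 3, M_FIP 1 or M_FIP 2 in FIP. Pfkfb4 made up 65.1 ± 2.12% of the pair per kb in M_DPP4_neg and 62.4 ± 2.03% in M_DPP4_pos, against 30.8 ± 1.6% and 31.7 ± 3.40% in females and 27.1 ± 6.38% in F_APC.

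**Figure D4:**
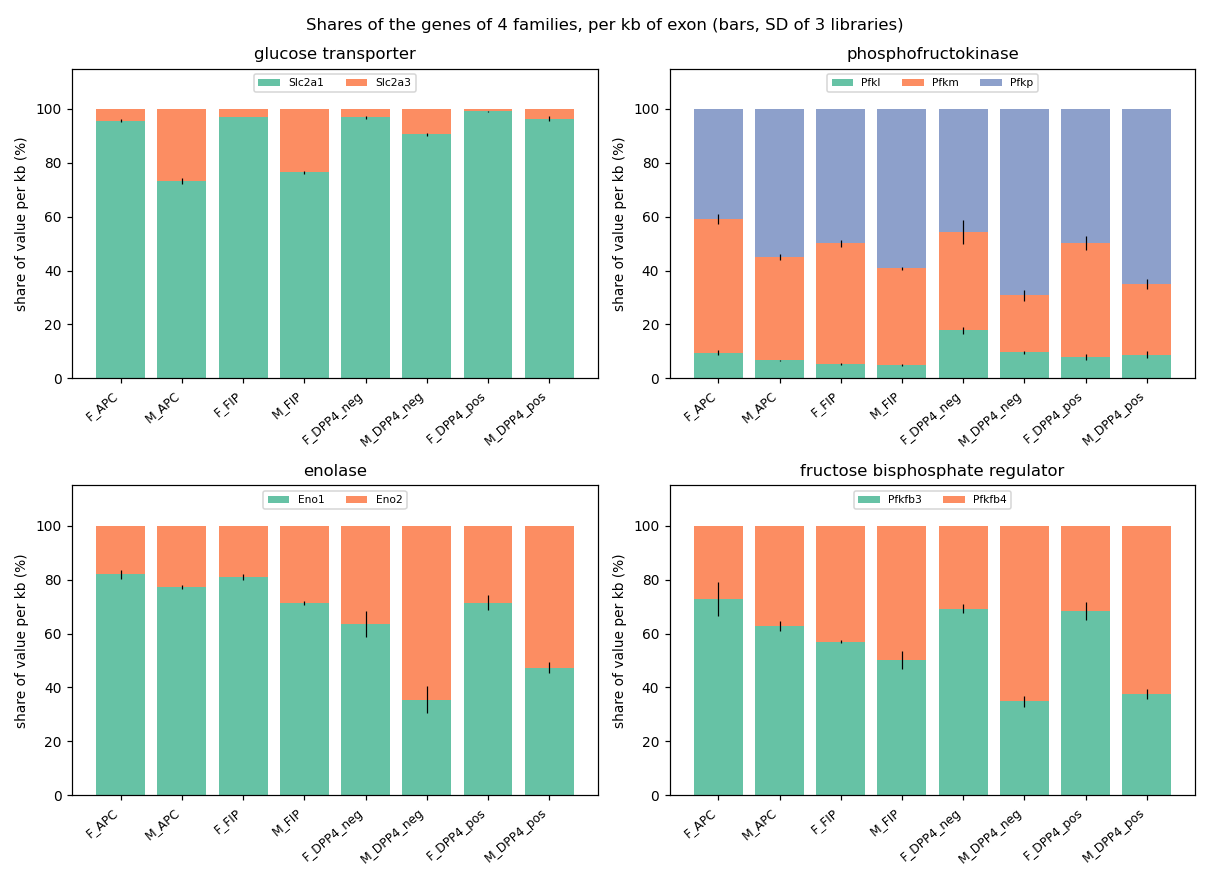
Stacked bars give the share of each gene in its family for each group, as the mean over 3 libraries of value per kb of exon, with bars for the SD. Slc2a3 takes 26.7% in M_APC and 4.31% in F_APC, Eno2 takes 64.5% in M_DPP4_neg, and Pfkfb4 takes more than Pfkfb3 in the male inguinal groups.

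Ndrg1 was higher in males in FIP (0.76 ± 0.078), DPP4_neg (0.71 ± 0.078) and DPP4_pos (1.28 ± 0.078) and lower in males in APC (-0.37 ± 0.078). P4ha1 was lower in males in APC, from 4518, 4141 and 3534 to 2703, 2827 and 2735 (log2 -0.55 ± 0.067, limma adjusted p = 2.53e-07), and in FIP, from 3324, 3367 and 3369.8 to 2113, 2277 and 2209 (log2 -0.61 ± 0.067, limma adjusted p = 8.19e-08). In DPP4_pos it went from 3995, 3903 and 4081 to 3327, 3423 and 3383 (log2 -0.24 ± 0.067, limma adjusted p = 0.00399), and in DPP4_neg from 4057, 4247 and 3911 to 4241, 4144 and 3947, not called (log2 0.014 ± 0.067), where it was called lower with quantile normalization (-0.25, limma adjusted p = 0.00153) and total reads (-0.27, 0.000457). The male libraries lay below the female ones in APC, FIP and DPP4_pos.

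Hif1a and Vegfa changed direction between the depots. Hif1a was higher in males in DPP4_neg (0.76 ± 0.076) and DPP4_pos (0.70 ± 0.076) and lower in FIP (-0.32 ± 0.076), and its lower call in APC (-0.19) was lost without F_APC 1 or 2 or M_APC 2 or 3, and with edgeR, no filter, quantile normalization or total reads. Vegfa was higher in males by 0.99 ± 0.09 in DPP4_neg and 1.08 ± 0.09 in DPP4_pos, and lower in APC (-0.55 ± 0.09) and in FIP (-0.24 ± 0.09), the FIP call being lost without F_FIP 1, F_FIP 2, M_FIP 2 or M_FIP 3 and with the same settings. The differences of the male effect between the depots were called for both genes (Hif1a -0.96 and -1.01, Vegfa -1.54 and -1.32, each gonadal minus inguinal).

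Of the 7 payoff enzymes, 5 were called higher in M_DPP4_neg (Gapdh 0.46, Pgk1 0.46, Pgam1 0.39, Pkm 0.37 and Eno2) and 6 in M_DPP4_pos (these and Ldha, 0.35), while in APC Eno1 (0.26, lost without F_APC 3 or M_APC 1) and Eno2 were higher and Ldha lower (-0.52), and in FIP Eno2 alone was called. Of all genes, 27.1% were called higher in males in each inguinal comparison, 22.4% in APC and 18.2% in FIP. With total reads the Gapdh, Pgk1, Pgam1 and Pkm calls in DPP4_neg were lost and Eno1 (-0.39, limma adjusted p = 0.000179) and Ldha (-0.20, 0.0144) were called lower, so that Eno2 alone was higher. With quantile normalization the Pkm call there was lost, and Eno1 (-0.23) and Ldha (-0.20) were called lower. The Gapdh and Pgam1 calls in DPP4_pos were lost with total reads and without F_DPP4_pos 2, that of Gapdh also without M_DPP4_pos 2 and that of Pgam1 with quantile normalization. Of these genes Gapdh, Pgk1, Pgam1, Eno1 and Pkm share over 20% of their windows with others. Hk2 was higher in M_DPP4_pos (0.64 ± 0.082) and lower in M_APC (-0.32 ± 0.082), and Hk1 higher in M_DPP4_neg (0.72 ± 0.086) and lower in M_FIP (-0.31 ± 0.086). Slc16a3 was higher in males in FIP (1.26 ± 0.22) and DPP4_pos (2.26 ± 0.22), and Bnip3 in the same populations (0.72 and 0.50). Adm was higher in males in APC alone (0.83 ± 0.10).

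Over the 4 sex comparisons 11 members were called in both directions, and Tpi1 and Egln1 in none, though both were called in some with other scalings. The shares of all genes called in both directions or in none are not given here. The members not yet given were called in males as follows. In M_APC Pfkl (-0.48) and Ddit4 (-0.44, lost without F_APC 1 or M_APC 2 or 3 and with total reads) were lower. In M_FIP Pdk1 (0.48, lost without F_FIP 3) and Egln3 (1.74) were higher and Gpi1 (-0.16, lost without 5 of the 6 libraries in turn and with quantile normalization, total reads and edgeR) lower. In M_DPP4_neg P4ha2 (0.47) and Aldoa (0.32, lost with quantile normalization and total reads) were higher, and Aldoc (-6.10), Egln3 (-2.41), Pfkl (-0.37) and Pdk1 (-0.43, lost with quantile normalization, at -0.17) lower. In M_DPP4_pos Pfkl (0.54), Ddit4 (0.78), Aldoa (0.26, lost with the same scalings) and Egln3 (1.11, lost without F_DPP4_pos 1, M_DPP4_pos 1 or M_DPP4_pos 3) were higher, and Aldoc (-1.59) and Pdk1 (-0.44, lost without F_DPP4_pos 3 or M_DPP4_pos 3 and with quantile normalization) lower. The last Aldoc value rests on 7 female reads and was lost without F_DPP4_pos 2 or 3.

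The other glycolysis genes were called 7 higher and 6 lower in males in APC, 11 higher and 3 lower in FIP, 4 higher and 9 lower in DPP4_neg and 8 higher and 5 lower in DPP4_pos, of 24. The other oxygen sensing and HIF target genes were called 11 higher and 12 lower, 13 higher and 12 lower, 18 higher and 17 lower and 14 higher and 19 lower in the same order, of 45. The shares of all genes called higher and lower were 22.4% and 22.1%, 18.2% and 19.0%, 27.1% and 30.3%, and 27.1% and 25.5% in that order. Car12, a carbonic anhydrase, was lower in males in FIP (-3.18), DPP4_neg (-3.61) and DPP4_pos (-5.40), and Nos2, the inducible nitric oxide synthase, higher in these populations (1.29, 2.50 and 4.13).

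**Figure D5:**
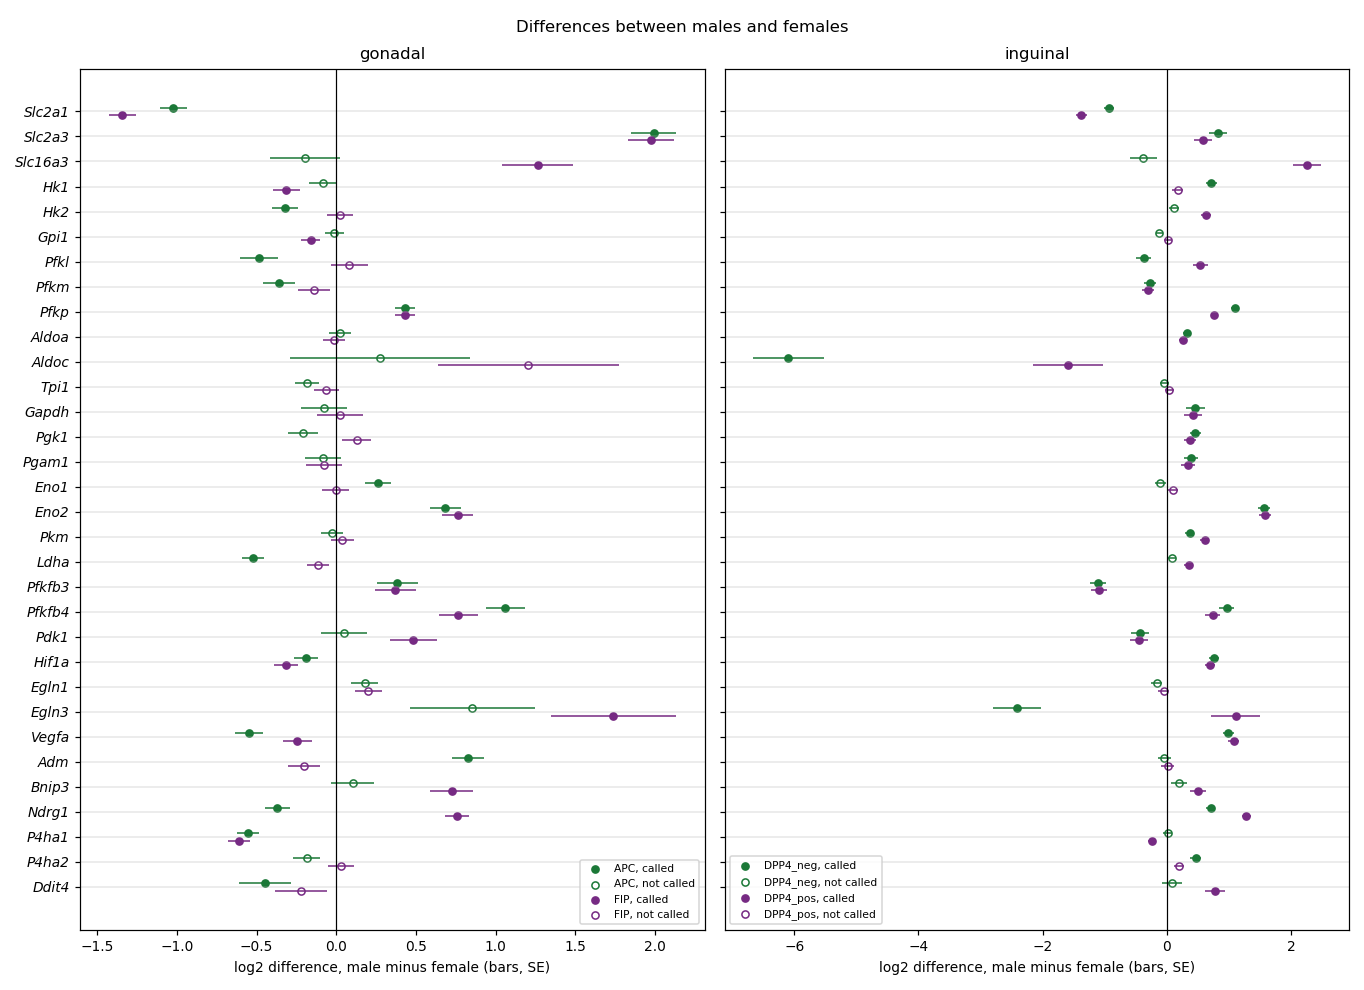
The male minus female log2 difference of each member (point, with its SE) is plotted for gonadal cells at left (APC green, FIP purple) and inguinal cells at right (DPP4_neg green, DPP4_pos purple), filled where called. Slc2a1 lies left of 0 and Slc2a3, Pfkp, Eno2 and Pfkfb4 right of 0 in all 4 populations, and Vegfa lies on opposite sides of 0 in the depots.

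The depots were compared as APC against DPP4_neg and FIP against DPP4_pos. These pairs are separate sorts with different labels, and the gates behind APC and FIP are not given, so depot and gate cannot be told apart. In all 4 comparisons gonadal cells held less Hk2, Eno2, Slc2a1, Hif1a, Ndrg1 and P4ha2, and these calls held under every alternative run. No member was higher in gonadal cells in all 4. How many of all genes were lower in gonadal cells in all 4 is not given here, so these 6 genes have no background beside them. Between APC and DPP4_neg, 7 members were called higher in APC and 15 lower in females, where 26.8% and 32.2% of all genes were, and 13 and 17 in males, where 33.1% and 33% were. Between FIP and DPP4_pos, 6 were higher in FIP and 15 lower in females, where 22.1% and 22.6% of all genes were, and 6 and 19 in males, where 32.6% and 32.4% were. In the 4 comparisons in this order, 5 and 11, 8 and 14, 4 and 9, and 4 and 13 of these held.

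The members' medians were -0.12, -0.39, -0.16 and -0.36, beside -0.022, 0.023, 0.014 and 0.019 for all genes. Total reads put the median of all genes at 0.43 for the male APC comparison, 0.19 for the female and 0.39 for the male FIP comparison, and quantile normalization put it at 0.11 for the female APC comparison. The splits were then 15 higher and 14 lower (males, APC), 9 higher and 10 lower (females, FIP) and 11 higher and 13 lower (males, FIP) with total reads, and 10 higher and 12 lower (females, APC), 8 higher and 12 lower (females, FIP) and 8 higher and 15 lower (males, FIP) with quantile normalization. The 20 immediate early and dissociation genes, none at 0, summed to 317843 to 544510 in the gonadal libraries and 153151 to 237306 in the inguinal ones. Their part in these depot differences was not tested.

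From the values printed above, Ndrg1 was lower in APC than in DPP4_neg, with log2 differences of -2.13 ± 0.078 in females (limma adjusted p = 3.69e-17) and -3.21 ± 0.078 in males (limma adjusted p = 7.68e-21). It was lower in FIP than in DPP4_pos too (-1.20 ± 0.078 and -1.73 ± 0.078). In no sex did gonadal and inguinal libraries of these pairs overlap. The log2 differences of Eno2 were -1.48 ± 0.098 and -2.37 ± 0.098 in APC, females first, and -1.0 ± 0.098 and -1.82 ± 0.098 in FIP. For both genes the male difference in APC was the larger, as tested between the sexes (Ndrg1 -1.08, limma adjusted p = 2.47e-08, and Eno2 -0.89, limma adjusted p = 1.30e-05).

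Hk2 counted 7236, 6259.7 and 7584 in F_APC, 5793, 4973 and 6077 in M_APC, 7948, 7659.8 and 7079 in F_FIP and 7804, 7636 and 7629.9 in M_FIP, below every inguinal library. Its log2 differences were -1.01 ± 0.082 and -1.46 ± 0.082 for APC and -1.18 ± 0.082 and -1.79 ± 0.082 for FIP, females first (limma adjusted p from 1.15e-15 to 1.05e-10). Hif1a counted 4126, 3789 and 3285 in F_DPP4_neg, 5902, 6448 and 6609 in M_DPP4_neg, 4625, 4888 and 4783 in F_DPP4_pos and 7687, 7797 and 7704 in M_DPP4_pos. All of these lay above the gonadal libraries, with log2 differences of -0.83 ± 0.076 and -1.79 ± 0.076 for APC and -0.61 ± 0.076 and -1.62 ± 0.076 for FIP. Those of Slc2a1 were -0.52 ± 0.086 and -0.61 ± 0.086 for APC and -0.80 ± 0.086 and -0.77 ± 0.086 for FIP.

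Vegfa counted 2570.1, 2012 and 2209.6 in F_DPP4_neg and 4249, 4759 and 4450.1 in M_DPP4_neg, above APC cells of the same sex (log2 -0.73 ± 0.09, limma adjusted p = 1.60e-07, and -2.27 ± 0.09, limma adjusted p = 6.84e-17). In DPP4_pos it counted 2369.7, 1847 and 1827 in females, where FIP did not differ by the test (0.016 ± 0.09), and 4145, 3977 and 4576 in males, above FIP (-1.31 ± 0.09). P4ha2, which acts on collagen chains, counted 905, 927 and 989 in F_FIP and 1705, 1611 and 1683 in F_DPP4_pos (log2 -0.83 ± 0.084, limma adjusted p = 1.18e-08). The male counts were 932, 987 and 958 in M_FIP and 1841, 1913 and 1974 in M_DPP4_pos (log2 -0.99 ± 0.084, limma adjusted p = 1.50e-10). The groups did not overlap.

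A smaller set was higher in gonadal cells. Slc16a3 was higher in APC than in DPP4_neg, at 67.3, 70.2 and 85.7 in F_APC (log2 0.71 ± 0.22, limma adjusted p = 0.00756) and 70.8, 74.2 and 50.9 in M_APC (log2 0.90 ± 0.22, limma adjusted p = 0.00101). Bnip3 (0.79 ± 0.13 and 0.69 ± 0.13) and Pfkm (0.77 ± 0.10 and 0.68 ± 0.10) were also higher in APC in both sexes, and these 3 calls held under every alternative. In FIP, Slc2a3 was higher than in DPP4_pos by 0.89 ± 0.14 in females and 2.28 ± 0.14 in males, and Pfkfb4 by 0.62 ± 0.12 and 0.65 ± 0.12. Ddit4 counted 191, 184 and 201 in F_FIP and 153, 177 and 166 in M_FIP, above DPP4_pos (1.44 ± 0.16 and 0.44 ± 0.16). The male Ddit4 call was lost without M_DPP4_pos 1 or M_FIP 2 and with quantile normalization.

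All 7 payoff enzymes were called lower in M_FIP than in M_DPP4_pos, from -1.82 for Eno2 and -0.86 for Pkm to -0.35 for Eno1, and 6 of 7 in M_APC than in M_DPP4_neg. Of all genes, 32.4% and 33% were called lower in these comparisons. In females the numbers were 4 in each comparison, where 22.6% (FIP) and 32.2% (APC) of all genes were called lower. In F_FIP the Eno1, Pkm and Pgk1 calls were lost with total reads, which left Eno2. With total reads the Ldha, Eno1 and Gapdh calls in M_FIP were lost as well, and the last 2 turned direction (0.031 and 0.0091), and with quantile normalization those of Ldha and Eno1. The Gapdh call was also lost with edgeR and without M_DPP4_pos 1, M_DPP4_pos 2 or M_FIP 1, and in M_APC without M_APC 1 and with total reads. The priming enzymes went both ways in males. Pfkm, Aldoa and Gpi1 were called higher in M_APC and Pfkm in M_FIP, where Aldoa (0.34 and 0.30) and Gpi1 (0.35 and 0.34) were called higher with quantile normalization and total reads but not in the main analysis (-0.079 and -0.042). The test between the sexes was called negative for 6 of the 7 in the APC comparison (Eno2 -0.89, Pgk1 -0.67, Ldha -0.61, Gapdh -0.54, Pgam1 -0.47 and Pkm -0.40), of which the Eno2 term alone held under every alternative. That test was called negative for 20.3% of all genes. Pfkl was lower in gonadal cells in all 4 comparisons (-0.59, -0.70, -0.45 and -0.91), the female FIP call being lost with total reads.

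Pfkfb3 was higher in gonadal cells in males alone (1.36 ± 0.13 in APC and 1.39 ± 0.13 in FIP), and the differences from females were called (1.49 and 1.47). Slc2a3 in APC was higher in males (1.21 ± 0.14) and not called in females (0.04 ± 0.14). Adm in APC was lower in females (-0.36, lost with quantile normalization) and higher in males (0.51 ± 0.10), and in FIP lower in both sexes (-0.62 and -0.83). Over all members, the difference of the depot effect between the sexes was called positive for 7 and negative for 15 in APC and DPP4_neg, where 22.6% and 20.3% of all genes were, and for 4 and 15 in FIP and DPP4_pos, where 15.7% and 19.2% were. With total reads the APC split was 11 positive and 7 negative, and with quantile normalization 8 and 11. The FIP split was 5 and 9 with both.

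The rest of the depot calls follow. In APC, Aldoa was higher in both sexes (0.53 and 0.23, the male call lost without M_DPP4_neg 2), as was Egln1 (0.22, lost without F_APC 1 or 2 or F_DPP4_neg 2 or 3, and 0.56). Pgam1 (-0.41 and -0.88), Pgk1 (-0.29, lost without F_DPP4_neg 1 and with quantile normalization, and -0.96) and Pkm (-0.18, lost without F_APC 1 or 3 or F_DPP4_neg 1 or 2 and with quantile normalization, total reads and edgeR, and -0.58) were lower in both sexes. Pfkfb4 in APC was called lower in both sexes (-0.40, lost without F_DPP4_neg 2, and -0.30, lost without M_APC 1 or 2 or M_DPP4_neg 2 or 3), and the male difference turned to 0.12 with total reads. Hk1 in M_APC was lower (-0.73), as were Ldha (-0.60) and P4ha1 (-0.58). Gpi1 (0.23), Pdk1 (0.37, lost without M_APC 1 or 2 or M_DPP4_neg 1 or 2 and with quantile normalization), and Eno1 (0.26, lost without M_APC 1) were called higher there. Ddit4 was higher in F_APC (0.59). Aldoc and Egln3 were lower in F_APC (-4.97 and -2.17) and called higher in M_APC (1.4 and 1.1), male calls that rest on few reads. That of Aldoc was lost without 5 of the 6 libraries in turn and went to 2.10 without the remaining one, M_APC 1, and that of Egln3 was lost without M_APC 2 or M_DPP4_neg 2. Pfkp was called higher in F_APC (0.16, lost without 5 of the 6 libraries in turn) and lower in M_APC (-0.51, lost with quantile normalization and total reads). P4ha2 was lower in both sexes (-0.37 and -1.03). Tpi1 was called in none of the 4 depot comparisons, but higher with quantile normalization in F_APC (0.25) and M_APC (0.22) and with total reads in M_APC (0.41) and M_FIP (0.27).

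In FIP, Bnip3 (-0.61 and -0.38, the male call lost with total reads) and P4ha1 (-0.25, lost with quantile normalization and total reads, and -0.62) were lower in both sexes. Hk1 was called higher in females (0.26, lost without F_DPP4_pos 2 or F_FIP 3) and lower in males (-0.23, lost without M_DPP4_pos 1 or M_FIP 3 and with edgeR, and turning to 0.060 with quantile normalization and 0.15 with total reads). Pfkp in M_FIP was lower (-0.24) but called higher with quantile normalization (0.14) and total reads (0.14). Aldoa in F_FIP was higher (0.20, lost without F_DPP4_pos 1 or 2 or F_FIP 1), Pdk1 there lower (-0.67), Pfkm in M_FIP higher (0.34) and Egln1 in M_FIP called higher (0.20, lost without 5 of the 6 libraries in turn). Slc16a3 in F_FIP was higher (0.79) and Aldoc there lower (-1.59, on 7 reads and 0, lost without F_DPP4_pos 2 or 3 or any F_FIP library).

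Of 24 other glycolysis genes, 5 higher and 10 lower in APC were called in females and 10 higher and 6 lower in males, and 4 higher and 7 lower in FIP in females and 7 higher and 5 lower in males. Ldhb was higher in M_APC than in M_DPP4_neg (2.77) and in M_FIP than in M_DPP4_pos (2.29), and made up 26.5 ± 0.917% of the lactate dehydrogenase pair per kb in M_APC against 3.36 ± 0.497% in M_DPP4_neg. Of 45 other oxygen sensing and HIF target genes, 12 higher and 18 lower were called in females and 13 higher and 18 lower in males for APC, and 5 higher and 18 lower and 15 higher and 16 lower for FIP. The repressor Bhlhe41 was lower in APC (-4.30 and -1.65), as was the mitochondrial adenylate kinase Ak4 (-1.89 and -2.32), and Epas1 was higher in FIP in both sexes (2.60 and 2.56).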

How the data were processed

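Bulk RNA of 24 libraries was analysed, 3 in each of 8 groups taken from the labels. Per the labels' protocols, libraries were made with NEBNext Ultra II from 0.5 ug of Trizol-extracted RNA a sample. The submitters' processing notes name HISAT2 2.0.1, DESeq2 1.6.3, Trim Galore 0.4.1, the counter featureCounts 1.4.6, and build GRCm38 (mm10). Their settings, strand handling and annotation are not given in the sources used here, so overlapping and antisense genes cannot be separated. The values the authors deposited are a normalised signal per gene, each library's read counts divided by its own size factor. Whole reads were recovered from the steps between values: 100% of values were whole within 0.01 reads. Rows without a gene symbol (at most 0.0765% of reads) name a gene identifier only and were kept in the library totals.

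The main test was limma 3.58.1 (R 4.3.3) with a mean-variance trend on log2(value + 1), with 8 group means over all 24 libraries and Benjamini-Hochberg adjustment over all 14517 genes tested. Differences are given on that log2(value + 1) scale, which understates changes of low genes. On the recovered reads, edgeR 4.0.16 called 5466 to 9522 genes in the 12 comparisons of 2 groups, where limma called 5355 to 9599 and DESeq2 1.42.0 called 5221 to 9235. The alternatives were pseudocounts of 0.5 and 5, no filter, a filter of 50, quantile normalization, edgeR, DESeq2, a fit of only the groups compared, the replicate number as a block, and each library left out. Egln3, at 32.5 or less, had no fit with the filter of 50, so its calls were judged on the other alternatives. Scaling by total reads and the blocked fit of only the groups compared were chosen after seeing the data.

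The members and lists were chosen with earlier results of these data known. Values in every library are given for members called the same way in both sexes of a population or depot comparison, or in at least 3 of the 4 sex comparisons, the largest first, up to 8 a comparison. Of each other list up to 3 called genes are named, except a gene that is not reported here, and promoters are shown for 4 members. Genes named outside this rule are said to be so or are given by their differences alone. Depth per library sets the precision, and intervals and floors cover counting error only. No pair of replicates agreed within sampling noise (chi-square per degree of freedom 1.61 to 25.4). Same-numbered libraries of F_DPP4_neg and F_DPP4_pos deviated together (correlations 0.15, 0.25 and 0.18). These numbers may pair them, but the labels do not say so. The main p-values come from the fit without a block.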

Additional observations from a re-analysis of the deposited data

Results flagged for a closer look

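The effect of subpopulation or of depot was compared between the sexes by an interaction term in limma, and 59 such terms passed the threshold over the 4 contrasts (Benjamini-Hochberg adjusted p under 0.05 over all genes tested). Each value is the male log2 difference minus the female log2 difference. A positive value stands for a larger rise, or a smaller fall, in males. No explanation of these differences was tested.

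For FIP minus APC in gonadal fat, the term was positive for Slc16a3 1.46, Ndrg1 1.13, Bnip3 0.62, Pfkl 0.57 and Ldha 0.41. It was negative for Adm -1.03. Of these 6 terms, 4 kept their direction and call under every alternative run (Ldha, Slc16a3, Ndrg1 and Adm).

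For DPP4_pos minus DPP4_neg in inguinal fat, the term was positive for Aldoc 4.5, Egln3 3.52, Slc16a3 2.64, Pfkl 0.91, Ddit4 0.69, Ndrg1 0.58, Hk2 0.52 and Ldha 0.27. It was negative for Hk1 -0.54, Slc2a1 -0.45, Pfkp -0.33 and P4ha1 -0.26. Of the 11 terms other than that of Aldoc, 6 kept their direction and call under every alternative in which they were fitted (Hk2, Pfkl, Slc16a3, Egln3, Ndrg1 and Hk1). Slc16a3 had opposite called directions in the 2 sexes in both depots. Aldoc passed the filter on low values through the F_DPP4_neg libraries alone, so its terms for the comparisons with that group are a description. Egln3 has low values, and the epithelial marker sums of those libraries stand beside its values above.

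For APC minus DPP4_neg, the term was positive for Aldoc 6.37, Egln3 3.27, Pfkfb3 1.49, Slc2a3 1.17, Adm 0.86, Eno1 0.36 and Egln1 0.34. It was negative for Vegfa -1.54, Ndrg1 -1.08, Hif1a -0.96, Eno2 -0.89, Hk1 -0.80, Pfkp -0.67, Pgk1 -0.67, P4ha2 -0.65, Ldha -0.61, P4ha1 -0.57, Gapdh -0.54, Pgam1 -0.47, Hk2 -0.45, Pkm -0.40 and Aldoa -0.30. Of the 21 terms other than that of Aldoc, 11 kept their direction and call under every alternative run (Slc2a3, Pfkfb3, Adm, Egln3, Hk1, Pfkp, Eno2, Vegfa, Hif1a, Ndrg1 and P4ha2).

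For FIP minus DPP4_pos, the term was positive for Aldoc 2.8, Pfkfb3 1.47, Slc2a3 1.39 and Pdk1 0.93. It was negative for Vegfa -1.32, Hif1a -1.01, Slc16a3 -1.0, Ddit4 -1.0, Eno2 -0.82, Hk2 -0.61, Pkm -0.57, Ndrg1 -0.53, Hk1 -0.49, Ldha -0.46, Pfkl -0.46, Pgam1 -0.42, P4ha1 -0.37, Pfkp -0.34 and Aldoa -0.28. Of these 19 terms, 10 kept their direction and call under every alternative run (Aldoc, Slc2a3, Pfkfb3, Pdk1, Hk2, Eno2, Pkm, Vegfa, Hif1a and Ddit4). The Aldoc term there rests on at most 7 reads a group.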

How the results depend on the processing

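No count of members called moved by more than 1.5 times under any alternative, and with libraries left out the counts ran from 4 to 7 for the sex difference of FIP minus APC to 25 to 29 for M_APC minus M_DPP4_neg. Of 254 calls in the 12 comparisons of 2 groups, 175 kept their direction and call under every alternative, as did 32 of 59 differences between sexes. Without the differences of Aldoc from F_DPP4_neg these were 172 of 251 and 31 of 57. The cause of the changes was not tested. A 2-group comparison of 3 libraries against 3, and values near 0 such as those of Aldoc, limit what this depth can show.

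Called differences that turned direction did so with 2 scalings. With quantile normalization Hk2 went to -0.11 for F_DPP4_pos minus F_DPP4_neg and to 0.029 for the sex difference of APC minus DPP4_neg, Hk1 to 0.060 and Pfkp to 0.14 for M_FIP minus M_DPP4_pos and Aldoa to 0.063 for the sex difference of APC minus DPP4_neg. With total reads, for M_FIP minus M_DPP4_pos, Hk1 went to 0.15, Pfkp to 0.14, Gapdh to 0.0091 and Eno1 to 0.031. Also with total reads, Aldoa went to 0.093 for the sex difference of APC minus DPP4_neg and Pfkfb4 to 0.12 for M_APC minus M_DPP4_neg. Differences not called in the main analysis also turned and were then called, 7 with each scaling. For M_DPP4_neg minus F_DPP4_neg these were P4ha1 (-0.25 with quantile normalization and -0.27 with total reads), Ldha (-0.20 with both) and Hk2 (-0.24, quantile). For M_FIP minus M_DPP4_pos they were Aldoa (0.34 and 0.30), Gpi1 (0.35 and 0.34) and Tpi1 (0.27, total reads). The others were Tpi1 for M_APC minus M_DPP4_neg (0.22 and 0.41), Gpi1 for M_DPP4_pos minus F_DPP4_pos (-0.14, quantile) and Slc2a1 for the sex difference of APC minus DPP4_neg (0.30, total reads). Further differences gained a call without a turn of direction, with these scalings, edgeR or DESeq2, and are given only in part.

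With the replicate block over all groups, 2 calls were lost, Pgam1 in the sex difference of FIP minus DPP4_pos (limma adjusted p = 0.0535) and Ldha in that of DPP4_pos minus DPP4_neg (0.0538). For F_DPP4_pos minus F_DPP4_neg, where the numbers may pair the libraries, the blocked fit of these groups called 17 members against 16 without the block. Hk2, called in the fit over all groups, was lost in both (limma adjusted p = 0.0621 and 0.0528), and Pfkm in the unblocked one. In the other 27 pairs of groups the correlation of same-numbered libraries ran from -0.44 to 0.24, with every library closest to its own number in 3 pairs. Each of these 3 joins a female and a male group, which cannot share animals, so such closeness does not establish pairing. In the fits of only the groups compared, 17 other calls were lost with the block and 13 without.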

Other observations

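Of 4 gluconeogenesis genes tested, 3 were called lower in FIP than in APC in both sexes, where 18.1% of all genes were in females and 18.0% in males, led by Pcx, pyruvate carboxylase (log2 -2.24 in females and -1.30 in males), and Pck1, which makes phosphoenolpyruvate (-1.69 and -1.49). Pck1 was also higher in males in APC (1.43), FIP (1.64), DPP4_neg (1.05) and DPP4_pos (2.25). Both genes are abundant in adipocytes, whose marker sums were 2215 to 2716 in APC and 540 to 1174 in FIP. The part of adipocyte RNA was not tested.

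Of 7 pentose phosphate genes, 4 were called higher and 0 lower in F_DPP4_pos than in F_DPP4_neg, and 3 and 0 in males, by limma, where 22.6% and 27.1% of all genes were in females and 25.2% and 25.3% in males. At an unadjusted p under 0.05 the counts were 4 higher and 0 lower in females and 4 higher and 0 lower in males. No share of all genes is given at that threshold, here or below. The oxidative dehydrogenases led, G6pdx (0.86 in females and 0.97 in males) and Pgd (0.72 and 1.24). Of 15 tricarboxylic acid cycle genes, 8 were called lower in M_APC than in F_APC and 0 higher by limma (1 higher and 9 lower at an unadjusted p under 0.05), where 22.1% of all genes were lower and 22.4% higher, the largest being Suclg2 (-0.62), a succinate-CoA ligase subunit. Among genes around pyruvate dehydrogenase, the kinase Pdk2 was higher in APC than in DPP4_neg in females (1.05) and males (1.72), and lower in FIP than in APC (-0.66 and -1.22).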
